A study of Drosophila melanogaster with 6 samples.

Results

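The genes br, Eip74EF and Eip93F encode transcription factors of the ecdysone cascade and are described here across 3 genotypes and 2 stages of wandering larvae. They were taken by their symbols, and 3 of the 15741 entries of the deposited table are these genes. Each had reads in all 6 libraries.

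Ecdysone is the steroid hormone that starts insect metamorphosis. It binds a receptor made of EcR and usp, and the receptor switches on a small set of early genes whose products are transcription factors, which then act on a larger set of late genes in the target tissues. The gene br (broad, the Broad-Complex) encodes BTB zinc-finger proteins that specify pupal development. Eip74EF (E74) encodes ETS-domain proteins, with a form that answers to low and a form that answers to high hormone. Eip93F (E93) encodes a helix-turn-helix protein of the Pipsqueak type. It is best known for its prepupal expression, for the death of larval salivary glands and midgut, and as the specifier of adult fate. Puffs at br and Eip74EF on the salivary gland chromosomes are classic early signs of the late larval hormone pulse.

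The libraries came from whole last-instar Drosophila melanogaster larvae, raised at 25 °C and pooled from more than 20 animals of each genotype. The groups were larvae depleted of Cmi (gene Lpt) by a short hairpin RNA, larvae labelled as depleted of Trr (gene trr) in the same way and wild type, each at clear gut and at blue gut, with 1 library per group. Both hairpins were driven by GawB69B, a Gal4 line active in epidermis and imaginal discs, and the labels name neither the wild-type stock nor a driver in it. Clear gut is the later stage, when dyed food has left the gut shortly before the puparium forms, and blue gut the earlier one. Trr is a histone methyltransferase that acts at enhancers within a COMPASS-like complex, and Cmi is a subunit of it.

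The hairpins' own target genes were looked at first. Lpt measured 5.11 RPKM (reads per kilobase of gene length, scaled to the reads of the library) in Cmi depletion, against 6.66 RPKM in wild type, at clear gut, and 4.44 against 5.57 RPKM at blue gut. The gene trr measured 4.76 RPKM in the library labelled Trr depletion, against 6.19 RPKM in wild type, at clear gut. At blue gut it measured 3.60 against 2.92 RPKM, above wild type although the label names a depletion. In Cmi depletion trr measured 5.92 RPKM at clear gut and 4.49 RPKM at blue gut, above the library labelled Trr depletion at each stage. Wild type was thus the lowest for trr at blue gut only, and the cause was not tested. The recovered depth was 23.1 to 25.0 M reads per library. With 1 library per group the spread between pools of the same kind is unknown, so intervals below are exact 95% counting intervals and cover counting error only.

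The loci are long and have several promoters. On dm6, br (gene 44505) lies on the plus strand of chromosome X from 1575132 to 1664869, with 16 annotated transcripts from 9 start sites. Eip74EF (gene 39962) lies on the minus strand of chromosome 3L from 17558672 to 17619325, with 5 transcripts from 3 start sites. Eip93F (gene 44936) lies on the plus strand of chromosome 3R from 21949114 to 22014539, with 3 transcripts from 2 start sites. The deposited lengths behind the RPKM values are 9822, 6479 and 12020 bases, in that order. For br and Eip93F that is the longest annotated transcript, and all exons of br together cover 20201 bases. The values are totals per gene, so the zinc-finger forms of br and the hormone-sensitive forms of Eip74EF cannot be told apart. The gene Mur2B lies across br on the other strand and shares 189 exonic bases with it. It held 617, 492 and 1428 reads in the Cmi depletion, labelled Trr depletion and wild-type libraries at clear gut and 146, 121 and 86 reads at blue gut, against 3713 to 24507 reads on br.

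The gene br was the most abundant of these transcription factor genes per length in every library. At clear gut it measured 70.1 RPKM in Cmi depletion, 94.6 RPKM in the library labelled Trr depletion and 103 RPKM in wild type. At blue gut it measured 28.6 RPKM in Cmi depletion, 23.2 RPKM in the library labelled Trr depletion and 16.4 RPKM in wild type. Every clear gut library lay above every blue gut library, and the order of the genotypes at clear gut was the reverse of that at blue gut. At clear gut br exceeded 92.8% to 95.2% of all entries in the table, against 75.4% to 84.1% at blue gut. In a whole larva, more cells with a transcript and more transcript per cell cannot be told apart.

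Eip74EF followed the same stage pattern at a lower level. At clear gut it measured 44.6 RPKM in Cmi depletion, 66.8 RPKM in the library labelled Trr depletion and 80.3 RPKM in wild type. At blue gut it measured 13.7 RPKM in Cmi depletion, 14.3 RPKM in the library labelled Trr depletion and 11.2 RPKM in wild type. The stages did not overlap, and the genotypes lay closer together at blue gut, where the highest library was 1.28 times the lowest, against 1.80 times at clear gut. The library labelled Trr depletion stood at 1.04 times Cmi depletion at blue gut (0.98 to 1.11), which was not distinguishable at this depth. It was the only pair of neighbours in the order of levels of any of the genes whose counting interval held 1.

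Eip93F was scarce at blue gut and varied most at clear gut. At clear gut it measured 18.2 RPKM in Cmi depletion, 2.96 RPKM in the library labelled Trr depletion and 6.98 RPKM in wild type. At blue gut it measured 0.469 RPKM in Cmi depletion, 0.322 RPKM in the library labelled Trr depletion and 0.211 RPKM in wild type. The stages did not overlap, and unlike br and Eip74EF the gene was highest in Cmi depletion at both stages. The blue gut values rest on 133, 90 and 59 reads in that order, and the clear gut values on 5472, 851 and 2026 reads. A floor of 3 reads in a library corresponds to 0.00998 to 0.0108 RPKM for Eip93F, so that it was detected at blue gut well above the floor. The spread at clear gut, where the highest library was 6.14 times the lowest, compares with 1.47 times for br.

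**Figure D1:**
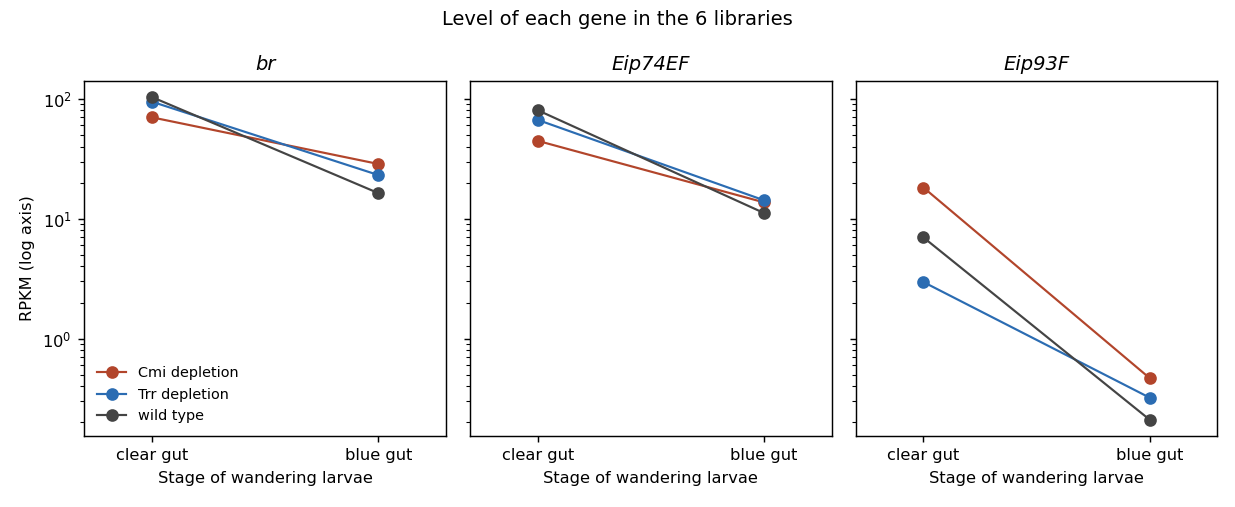
RPKM on a log axis of br, Eip74EF and Eip93F in the 6 libraries, with 1 point per library, clear gut and blue gut on the horizontal axis and a line joining the libraries of a genotype. All clear gut points lie above all blue gut points of a gene; the lines of br and Eip74EF cross, with wild type highest at clear gut (103 and 80.3 RPKM) and lowest at blue gut (16.4 and 11.2 RPKM), while Eip93F is highest in Cmi depletion at both stages (18.2 and 0.469 RPKM).

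The stage comparison shows how far each gene moved in late wandering. Across the 3 genotypes all of them rose at clear gut, Eip93F by the largest factor and br by the smallest within each genotype label. The gene br stood at 2.45 times its blue gut level in Cmi depletion (2.38 to 2.52), at 4.08 times in the libraries labelled Trr depletion (3.96 to 4.21) and at 6.31 times in wild type (6.10 to 6.53). Eip74EF stood at 3.26 times in Cmi depletion (3.10 to 3.42), at 4.68 times in the libraries labelled Trr depletion (4.47 to 4.91) and at 7.19 times in wild type (6.83 to 7.57). For both genes the stage ratio was thus largest in wild type and smallest in Cmi depletion, with intervals that did not overlap. Eip93F did not follow this order. It stood at 38.8 times in Cmi depletion (32.7 to 46.4), at 9.21 times in the libraries labelled Trr depletion (7.41 to 11.6) and at 33.1 times in wild type (25.3 to 43.3), where the intervals of Cmi depletion and wild type overlapped. Among the genes tested, 30.2% in Cmi depletion, 21.2% in the libraries labelled Trr depletion and 31.4% in wild type were at least 1.5-fold higher at clear gut.

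When limma was fitted additively to log2(RPKM + 1), with genotype as a covariate, the change at clear gut was 1.94 for br (SE 0.27, adjusted p = 0.0099), 2.18 for Eip74EF (SE 0.23, adjusted p = 0.00589) and 2.67 for Eip93F (SE 0.42, adjusted p = 0.0134), each with the same direction in 3 of 3 genotypes. Adding 1 to the RPKM understates the change of Eip93F, whose plain log2 ratios were 5.28 in Cmi depletion, 3.20 in the libraries labelled Trr depletion and 5.05 in wild type. Of 11467 genes tested, 35.3% were called at all and 24.2% were called higher than at blue gut, while 11.1% were called lower. In addition 38.5% had every clear gut library above every blue gut library, so that a rise as such was common at this stage. By size, br lay above 97.9%, Eip74EF above 98.5% and Eip93F above 99.2% of the genes tested. Limma called 2777 genes higher and 1275 lower, against 1340 higher and 1453 lower with median-ratio scaling, under which the median of all genes lay at -0.05 in place of 0.15. With that scaling br, Eip74EF and Eip93F changed by 1.72, 1.96 and 2.55, and each was called (adjusted p = 0.021, 0.0115 and 0.0177).

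Eip93F reached the filter of a mean of 1 RPKM only through its clear gut libraries, so it had to differ between stages to be tested at all, and its call is given as a description. With no filter its adjusted p was 0.031. Without both wild-type libraries the log2 changes were 1.62 for br, 1.89 for Eip74EF and 2.65 for Eip93F, with adjusted p = 0.0663, 0.057 and 0.116 from limma. That fit called 0 of 11467 genes, with 3968 at an unadjusted p below 0.05, so the loss of these calls is not particular to br, Eip74EF and Eip93F. Leaving out either wild-type library alone gave the same log2 changes of 1.62, 1.89 and 2.65. The additive fit then uses the remaining one only for the level of wild type, so these runs are no separate checks. The residual of the fit on all 6 libraries is the extent to which the stage change differs between genotypes. It was large for these genes, whose residual SD exceeded that of 90.2%, 84.4% and 96.7% of genes for br, Eip74EF and Eip93F.

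The next comparison asks how the early genes differ when a subunit of the complex is depleted. At clear gut br and Eip74EF were lower and Eip93F was higher in Cmi depletion, while at blue gut each was higher. The gene br stood at 0.678 times wild type at clear gut (0.665 to 0.692) and at 1.75 times at blue gut (1.68 to 1.82). Eip74EF stood at 0.556 times wild type at clear gut (0.540 to 0.572) and at 1.23 times at blue gut (1.15 to 1.31). Eip93F stood at 2.61 times wild type at clear gut (2.48 to 2.75) and at 2.22 times at blue gut (1.61 to 3.05). Among the genes tested, 16.7% were at least 1.5-fold higher and 10.4% at least 1.5-fold lower at clear gut, and 15.5% were at least 1.5-fold higher at blue gut. At clear gut the log2 ratio of Eip93F lay above that of 99.3% of genes, and those of br and Eip74EF lay above 8.66% and 5.42%. At blue gut the log2 ratios of RPKM + 1 of br, Eip74EF and Eip93F lay above those of 95.4%, 69.4% and 69.8% of genes.

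In the libraries labelled Trr depletion all of these genes were lower than wild type at clear gut and higher at blue gut. Eip93F differed most, at 0.425 times wild type at clear gut (0.392 to 0.461), where only 1.23% of genes had a lower log2 ratio and 5.15% were at least 1.5-fold lower. It stood at 1.53 times wild type at blue gut (1.08 to 2.14). The gene br stood at 0.915 times (0.899 to 0.932) at clear gut and 1.41 times (1.36 to 1.48) at blue gut. Eip74EF stood at 0.831 times (0.810 to 0.853) at clear gut and 1.277 times (1.197 to 1.362) at blue gut. At blue gut 14.0% of genes were at least 1.5-fold higher. There the log2 ratios of RPKM + 1 of br, Eip74EF and Eip93F lay above those of 85.5%, 70.5% and 43.3% of genes. That of Eip93F was 0.13, against a median of 0.18 over all genes tested. With median-ratio scaling the blue gut ratios of br, Eip74EF and Eip93F were 1.25, 1.13 and 1.35.

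Set directly against each other, the Cmi depletion libraries and those labelled Trr depletion differed most in Eip93F at clear gut. The library labelled Trr depletion held 0.163 times the level of Cmi depletion (0.151 to 0.175), that is 2.96 against 18.2 RPKM, where 0.183% of genes had a lower log2 ratio and 5.51% were at least 1.5-fold lower. At blue gut the ratio was 0.687 (0.519 to 0.903). For br and Eip74EF the library labelled Trr depletion was higher at clear gut, at 1.35 times (1.32 to 1.38) and 1.496 times (1.452 to 1.542) Cmi depletion, where 11.8% of genes were at least 1.5-fold higher.

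Over both stages limma called none of these genes between genotypes. In Cmi depletion against wild type the mean log2 change was 0.11 for br (SE 0.33, adjusted p = 0.896), -0.28 for Eip74EF (SE 0.29, adjusted p = 0.709) and 0.77 for Eip93F (SE 0.52, adjusted p = 0.672). In the libraries labelled Trr depletion against wild type limma gave 0.17 (SE 0.33, adjusted p = 0.834), 0.03 (SE 0.29, adjusted p = 0.966) and -0.44 (SE 0.52, adjusted p = 0.73). Between the libraries labelled Trr depletion and Cmi depletion, Eip93F differed by -1.21 (SE 0.52, adjusted p = 0.988, unadjusted p = 0.0693). Few genes at all were called in these comparisons, 0.105% for Cmi depletion, 0.0523% for the libraries labelled Trr depletion and 0.0% between these and Cmi depletion, where 492 genes had an unadjusted p below 0.05. The mean over stages of br and Eip74EF joins a ratio above 1 at blue gut with a ratio below 1 at clear gut, and the Cmi and Trr comparisons share the wild-type libraries.

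**Figure D2:**
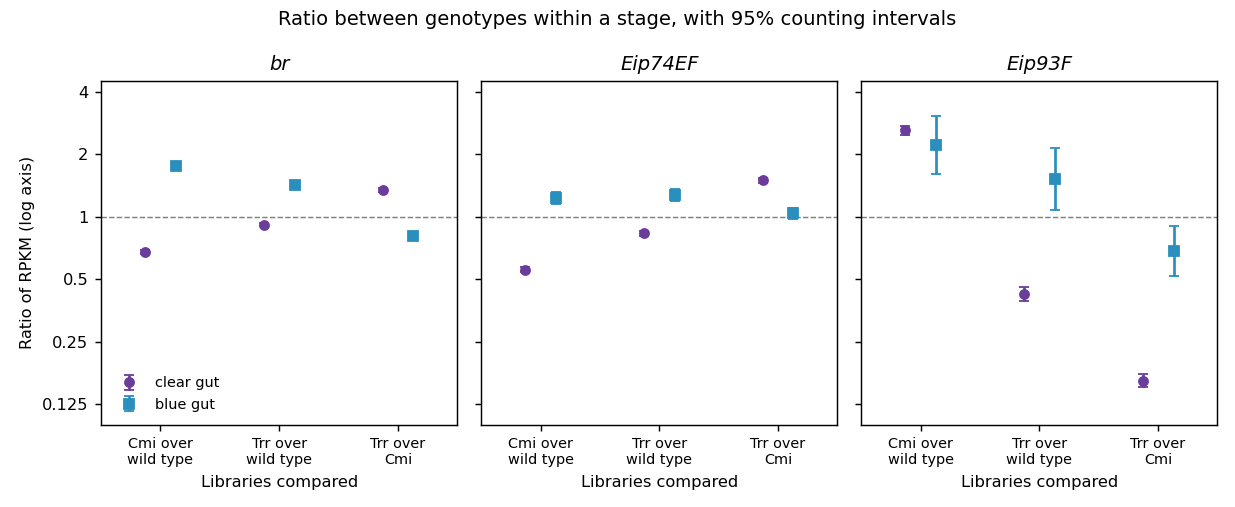
Ratio of RPKM between genotypes on a log axis for br, Eip74EF and Eip93F, with circles for clear gut, squares for blue gut and bars for exact 95% counting intervals of 1 library against 1 library; Trr stands for the libraries labelled Trr depletion. Against wild type, br and Eip74EF lie below 1 at clear gut and above 1 at blue gut under both hairpin labels, while Eip93F at clear gut lies at 2.61 in Cmi depletion and at 0.425 in the library labelled Trr depletion.

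The crossing of br and Eip74EF, above wild type at blue gut and below it at clear gut under both hairpin labels, was seen in 7.06% of the genes tested and in 11 of 74 genes of the ecdysone and cell death lists below (14.9%). At blue gut alone, Cmi depletion and the library labelled Trr depletion both lay above wild type in 50.8% of genes tested, so that this side of the crossing is near the background. Taken by genotype, the crossing was seen in 16.7% of genes for Cmi depletion and 21.5% for the libraries labelled Trr depletion. The order of stage changes of br and Eip74EF, largest in wild type and smallest in Cmi depletion, was seen in 15.2% of genes. These shares are descriptions of 6 libraries, and the difference of a genotype's effect between stages was not tested for want of replicates.

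The proportions of the transcription factors to each other, as ratios of RPKM within a library, changed with stage and genotype. The ratio of Eip74EF to br was 0.637, 0.706 and 0.778 at clear gut and 0.478, 0.616 and 0.682 at blue gut, in Cmi depletion, the libraries labelled Trr depletion and wild type. It was thus lowest in Cmi depletion at both stages, and in every genotype it was higher at clear gut. The ratio of Eip93F to br was 0.260, 0.0313 and 0.0676 at clear gut, against 0.0164, 0.0139 and 0.0129 at blue gut, in the same order. The genotypes lay close together at blue gut, while at clear gut Cmi depletion stood far above the others.

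Genes with the most similar profiles were sought among the 10744 other genes with a symbol that passed the filter of a mean of 1 RPKM. The measure was the root mean square difference of log2(RPKM + 1) over the 6 libraries after centring each gene on its mean. Nearest to br were CG18812 (0.10), CG9005 (0.14), bchs (0.15), pain (0.17) and Ark (0.18). Here bchs encodes a large protein linked to autophagy, pain a channel of nociceptive neurons and Ark the adaptor of the apoptosome. Eip74EF came 14th from br (0.20), against a median of 0.97 over all genes. CG18812 measured 139, 149 and 168 RPKM at clear gut and 51.5, 41.3 and 28.6 RPKM at blue gut in Cmi depletion, the libraries labelled Trr depletion and wild type, with the same crossing as br.

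Nearest to Eip74EF were tok (0.17), which encodes the metalloprotease tolkin, CG9005 (0.19), CG4950 (0.19), CG11382 (0.20) and CG12481 (0.20), with br in place 7. At blue gut CG11382 measured 0.637, 0.818 and 0.998 RPKM in Cmi depletion, the library labelled Trr depletion and wild type. It thus passed the filter only through clear gut. Nearest to Eip93F were CG11865 (0.23), CG18367 (0.27), SoxN (0.30), CG3726 (0.36) and CecA2 (0.38). In the same order of genotypes, CG11865 measured 0.0, 0.0 and 0.06 RPKM and CG18367 0.215, 0.0 and 0.11 RPKM at blue gut. Like Eip93F, both passed the filter only through clear gut, so a rise at clear gut was a condition of their listing. SoxN is a transcription factor of the Sox family and CecA2 an antimicrobial peptide of the cecropin family. SoxN measured 58.0, 18.7 and 42.8 RPKM at clear gut and 6.21, 5.98 and 3.65 RPKM at blue gut, in the same order of genotypes. Both br and Eip74EF lay at 0.89 from Eip93F, in places 413 and 420, so that the profile of Eip93F was far less like theirs than theirs were like each other. The likeness rests on 6 libraries that fall into 2 stages.

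**Figure D3:**
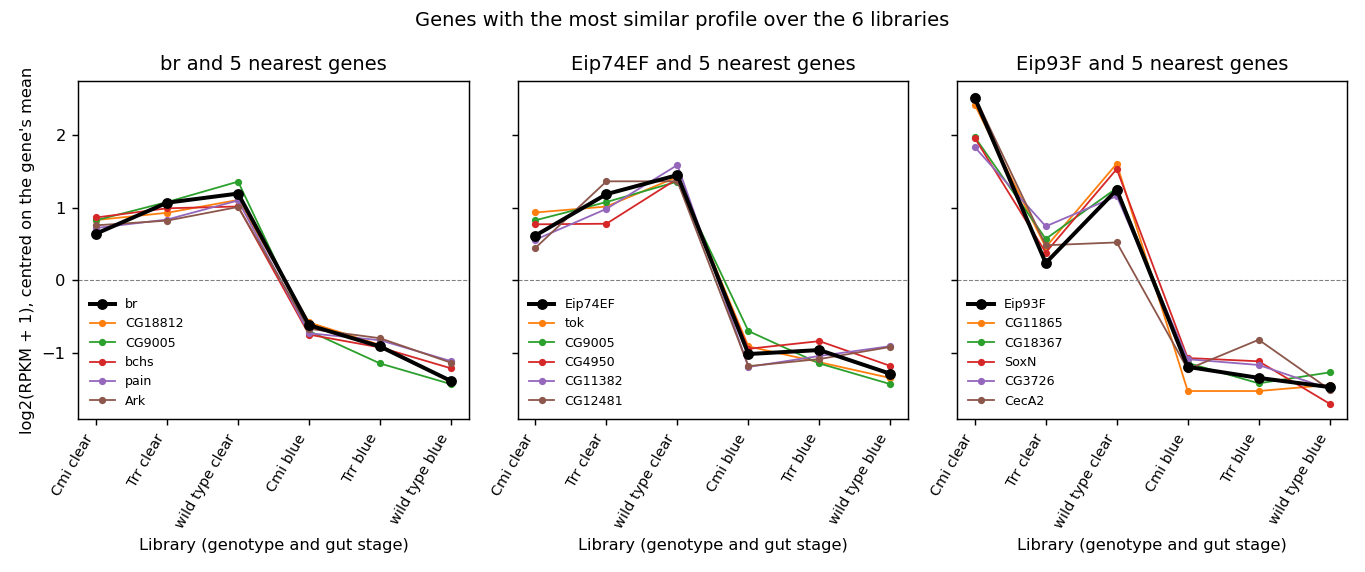
Profiles of br, Eip74EF and Eip93F (black) and of the 5 genes nearest to each (coloured) over the 6 libraries, as log2(RPKM + 1) centred on each gene's mean, with 1 point per library; the libraries run from clear gut to blue gut, and Trr stands for the libraries labelled Trr depletion. The black lines of br and Eip74EF rise from Cmi depletion to wild type within clear gut, while that of Eip93F dips at the library labelled Trr depletion.

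The genes around these transcription factors in the hormone pathway were then compared between stages, from 7 lists with 74 genes tested. The counts below stand against 24.2% of all genes tested that were called higher and 11.1% called lower. Of the genes for ecdysone synthesis, uptake and breakdown, limma called 2 of 10 higher and 0 lower, which is no larger a share than the 24.2% of all genes, with a median of 0.47 against 0.15 over all genes. The called genes were sad (0.83, adjusted p = 0.0121) and spok (0.72, adjusted p = 0.02), both cytochrome P450 genes of the prothoracic gland. Without both libraries labelled Trr depletion none of the 10 was called. Between genotypes none was called, although the list's median was -0.49 in Cmi depletion, and -0.43 where the label names Trr, against medians of 0.13 and 0.15 over all genes. Among the receptor and its cofactors 2 of 6 were called higher, near the share of 24.2% over all genes. They were tai (1.55, adjusted p = 0.0124), a coactivator of EcR, and gce (0.90, adjusted p = 0.0217), a juvenile hormone receptor. EcR itself did not pass the test (-0.20, adjusted p = 0.72). It measured 7.33, 21.3 and 17.4 RPKM at clear gut and 18.1, 18.6 and 12.8 RPKM at blue gut in Cmi depletion, the libraries labelled Trr depletion and wild type. EcR was lowest of all in Cmi depletion at clear gut. In that library br and Eip74EF were the lowest of their stage, while Eip93F was the highest. The partner gene usp was matched to no entry by symbol or through RefSeq, so it was not analysed here.

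Of the nuclear receptors that ecdysone regulates, 5 of 6 tested were called higher, with a median of 2.88, against 24.2% of all genes called higher. With median-ratio and quantile scaling 4 of 6 were called, against 11.7% and 18.0% of all genes. The call that ended was that of Eip75B (1.54, adjusted p = 0.0427 from limma, then 0.103 and 0.0732). Hr4 and Hr46 lay below 1 RPKM in every blue gut library and, like Eip93F, were tested only through clear gut, so their values are descriptions. Of the other 4, 3 were called higher, with a median of 1.73. The 1 called lower was ftz-f1 (-0.61, adjusted p = 0.0451), the mid-prepupal competence factor. Its call ended without both Cmi depletion libraries (adjusted p = 0.113) and without both libraries labelled Trr depletion (adjusted p = 0.12). Eip78C (4.37, adjusted p = 0.00256), Hr4 (4.15, adjusted p = 0.00256) and Hr46 (3.85, adjusted p = 0.00367), early-late genes of the cascade, had larger log2 changes than br, Eip74EF and Eip93F, while Hr39 had one of 1.91 (adjusted p = 0.00649), and these differences between genes were not tested. Of 14 other ecdysone-induced genes 10 were called higher and 2 lower, with a median of 1.11. With median-ratio scaling 7 were called higher, with quantile normalization 9, and without both libraries labelled Trr depletion 8. Of all genes, 11.7%, 18.0% and 13.4% were called higher in these settings. The largest changes were those of ImpE2 (3.53), ImpE1 (3.50) and ImpE3 (3.05), which are induced in imaginal discs, and of the repressor gene Blimp-1 (2.75). Their adjusted p from limma were 0.00256, 0.00256, 0.0027 and 0.00292. Blimp-1 and ImpL1 lay below 1 RPKM in every blue gut library, so that their calls too are descriptions, and of the other 12 genes 8 were called higher, with a median of 0.89. The 2 called lower were Eip55E (-0.52, adjusted p = 0.0219), whose call ended without both libraries labelled Trr depletion (adjusted p = 0.099), and the lactate dehydrogenase gene ImpL3 (-1.06, adjusted p = 0.026).

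Regulators of stage identity had 5 of 8 called higher and 0 lower, with a median of 0.82, against 24.2% of all genes called higher. With median-ratio scaling 3 of 8 were called, against 11.7% of all genes, and without both libraries labelled Trr depletion 3 of 8, against 13.4%. The 5 called before rescaling included Syp (1.23, adjusted p = 0.0111), an RNA-binding protein of neural timing, Kr-h1 (1.09, adjusted p = 0.0248), the juvenile hormone response gene, ab (1.09, adjusted p = 0.013) and mamo (0.89, adjusted p = 0.0217). The call of Kr-h1 ended with median-ratio scaling (adjusted p = 0.0731). At blue gut mamo measured 1.11, 0.989 and 0.574 RPKM in Cmi depletion, the library labelled Trr depletion and wild type. Their mean lay below the filter of 1 RPKM, so mamo was tested only through clear gut and its call is a description. The larval specifier chinmo, which is known to be followed by br in the pupal and Eip93F in the adult programme, was not called (-0.24, adjusted p = 0.312). It measured 3.49, 4.03 and 2.88 RPKM at clear gut and 5.28, 4.81 and 2.94 RPKM at blue gut in Cmi depletion, the libraries labelled Trr depletion and wild type.

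Downstream, the late puff genes Eig71E are known targets of br and Eip74EF, and the cell death and autophagy genes lie downstream of br and Eip93F in dying larval tissues. Of the late puff genes 6 of 11 were tested and limma called 1 higher, Eig71Eg (3.83, adjusted p = 0.00284). That is no larger a share than the 24.2% of all genes. Eig71Ef lay below 1 RPKM in every blue gut library, and the median of the other 5 was 3.27. Among these, Eig71Eb measured 0.837, 1.33 and 0.244 RPKM at blue gut in Cmi depletion, the library labelled Trr depletion and wild type. Their mean lay below 1 RPKM, so Eig71Eb too was tested only through clear gut. Without both libraries labelled Trr depletion 5 of the 6 were called, where 13.4% of all genes were called higher. Eig71Eb and Eig71Ef were among them. Of 24 cell death and autophagy genes 18 were called higher and 0 lower, with a median of 0.67, against 24.2% of all genes called higher. They were led by the autophagy gene Atg7 (2.75), the death activator rpr (1.95), the caspase gene Nc (1.87, Dronc) and Ark (1.73). Their adjusted p from limma were 0.00256, 0.0128, 0.00493 and 0.00542. Of the 24, 12 were called with median-ratio scaling, 12 without both Cmi depletion libraries and 11 without both libraries labelled Trr depletion, where 11.7%, 20.7% and 13.4% of all genes were called higher. Without both wild-type libraries limma called 0 genes in each of the 7 lists.

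At clear gut the order of Eip93F, with Cmi depletion above wild type and wild type above the library labelled Trr depletion, was seen in 16.8% of all genes tested and in 26 of the 74 genes of these lists (35.1%). With at least 1.5-fold at each step it was seen in 46 genes (0.401%), of which Eip93F is 1, and in 4 of the 74, Eig71Ea, Eig71Eb, Eig71Ed and rpr, which were picked out after their values were seen. Eig71Ea measured 69.1, 7.72 and 42.0 RPKM at clear gut in Cmi depletion, the library labelled Trr depletion and wild type, and rpr measured 41.4, 14.9 and 23.0 RPKM. The order of br and Eip74EF at clear gut, with wild type highest and Cmi depletion lowest, was seen in 8.94% of all genes and in 9 of the 74 (12.2%).

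**Figure D4:**
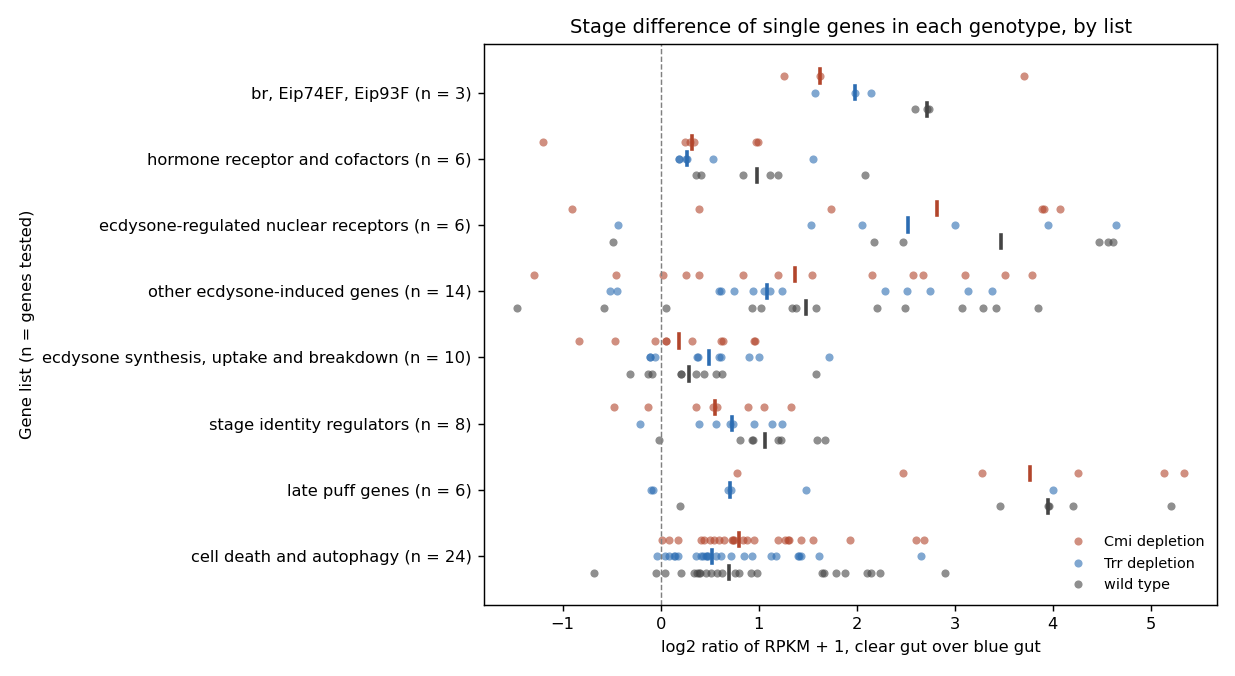
Difference between clear gut and blue gut of single genes as log2 ratio of RPKM + 1, with 1 point per gene and genotype, a bar at the median of each list and the number of genes tested in brackets; Trr stands for the libraries labelled Trr depletion. The points of br, Eip74EF and Eip93F lie at 1.58 or above in wild type and the libraries labelled Trr depletion, and between 1.26 and 3.71 in Cmi depletion; the nuclear receptors reach further than any of them.

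Levels of tissue markers moved with stage and genotype beside these genes, and their part in the results was not tested. The counts called stand against 24.2% of all genes called higher and 11.1% called lower. Summed over 6 imaginal disc markers, clear gut libraries held 69.6 to 80.3 RPKM and blue gut libraries 25.2 to 39.3 RPKM, with 6 of 6 called higher. With median-ratio scaling or without both libraries labelled Trr depletion 3 were called, where 11.7% and 13.4% of all genes were called higher. Wild type was the lowest at blue gut, as for br, and as in 50.8% of all genes tested. Midgut digestion markers summed to 2240 to 2700 RPKM at clear gut and 14500 to 20200 RPKM at blue gut, with 12 of 12 called lower. Muscle markers summed to 106 to 510 RPKM at clear gut, lowest in Cmi depletion and highest in the library labelled Trr depletion, against 1690 to 2260 RPKM at blue gut, with 7 of 7 called lower, or 4 of 7 without both Cmi depletion libraries. Fat body markers summed to 28300 to 35800 RPKM at clear gut and 46200 to 55000 RPKM at blue gut, with 4 of 6 called lower and Fbp1 called higher, the last not with median-ratio scaling or without both libraries of either hairpin label. Neuronal markers summed to 45.9 to 46.4 RPKM at clear gut and 32.4 to 34.0 RPKM at blue gut, with elav and brp, 2 of the 4 tested, called higher, or 1 of 4 with either scaling or without both libraries labelled Trr depletion. At clear gut 6 salivary gland glue genes summed to 2460, 13500 and 17000 RPKM in Cmi depletion, the library labelled Trr depletion and wild type. In the same order they summed to 5550, 8920 and 21800 RPKM at blue gut. Of them 0 were called, but 1 was called higher with quantile normalization and 1 lower without both libraries labelled Trr depletion. Of all genes, 18.0% were called higher in the former setting and 9.38% lower in the latter.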

How the data were processed

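Per the labels' protocols, oligo-dT selected RNA was sequenced on an Illumina HiSeq instrument and mapped with SOAPaligner/SOAP2, while Bowtie and dm6 appear in the submitters' processing notes. How reads were counted, and on which annotation, is not given in the sources used here. As deposited, values are RPKM, which the authors scaled by gene length, and they add up to the same total per library once multiplied by length. A dash was read as 0. Depth was recovered as the number of reads that turns most RPKM values into whole reads, and 84.7% to 85.9% of values lay within 0.1 of a whole read (chance 20%) with it.

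Intervals of read ratios are exact (Clopper-Pearson). An additive model of genotype and stage on log2(RPKM + 1) was fitted with limma 3.58.1 and statmod 1.5.0 in R 4.3.3 (eBayes with trend and robust, two-sided, Benjamini-Hochberg at 0.05) over 11467 genes whose mean reached 1 RPKM, and was checked on simulated data. It leaves 2 residual degrees of freedom. Its residual is the difference of a genotype's effect between stages, not the spread between pools. The simulated data held no genotype effect and so no such difference, and the check on them does not bear on this residual. In the text, a gene that "rose" or "fell" passed the limma test.

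Coordinates are Ensembl's on BDGP6, the dm6 assembly. Of 128 genes on the other lists 126 were found by symbol or through RefSeq. The genes and lists were chosen with earlier results of these data known. Named were br, Eip74EF and Eip93F, up to 4 called genes per list by size of change, EcR, chinmo and Kr-h1, and the 5 nearest profiles. The genes ftz-f1, Eip75B, Eip55E, ImpL1, ImpL3, Eig71Eb, Eig71Ef, Fbp1, elav and brp were named after their values were seen. A planned search for promoter motifs was not run, as no sequence was used here. Alternatives were a pseudocount of 0.1, other filters, median-ratio and quantile scaling, plain eBayes, and leaving out libraries.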

Additional observations from a re-analysis of the deposited data

Results flagged for a closer look

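Several ratios between genotypes lay on opposite sides of 1 at the 2 stages, each with a counting interval that excluded 1. The differences between stages were not tested, since each group holds 1 library. For br, Cmi depletion over wild type was 0.678 at clear gut and 1.749 at blue gut. The libraries labelled Trr depletion over wild type gave 0.915 at clear gut and 1.415 at blue gut for br, and over Cmi depletion 1.35 at clear gut and 0.809 at blue gut. For Eip74EF, Cmi depletion over wild type was 0.556 at clear gut and 1.226 at blue gut, and the libraries labelled Trr depletion over wild type gave 0.831 at clear gut and 1.277 at blue gut. For Eip93F, the libraries labelled Trr depletion over wild type gave 0.425 at clear gut and 1.526 at blue gut. Each of these ratios stayed on its side of 1 under either scaling. The blue gut ratio of Eip93F, 1.526 (1.078 to 2.14), fell to 1.346 with median-ratio scaling and to 1.23 with quantile normalization. Counting intervals were not recomputed with the scalings, so whether each would still exclude 1 was not tested.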

How the results depend on the processing

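The rises of br, Eip74EF and Eip93F at clear gut were called by limma under a pseudocount of 0.1, no filter, both scalings and plain eBayes, except that Eip93F, with a mean of 4.86 RPKM, was not tested under the filter of 5 RPKM. They were not called without both wild-type libraries, at 1.62, 1.89 and 2.65 (adjusted p = 0.0663, 0.057 and 0.116). Leaving out single libraries gave 1.62 to 2.28, 1.89 to 2.45 and 2.15 to 3.21, with 0 to 3610 genes called in all. The number of genes called was 2615 without both libraries labelled Trr depletion and 0 without both wild-type libraries, against 4052; the cause was not tested.

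Between genotypes none of the 3 genes was called under any alternative run. With median-ratio scaling the sign turned for br in Cmi depletion (-0.01) and for Eip74EF in the libraries labelled Trr depletion (-0.14, and -0.06 with quantile normalization); the cause was not tested. Leaving out single libraries gave, for br, Eip74EF and Eip93F, -0.40 to 0.62, -0.70 to 0.14 and -0.0054 to 1.55 in Cmi depletion, -0.31 to 0.66, -0.39 to 0.46 and -1.26 to 0.37 in the libraries labelled Trr depletion, and -0.45 to 0.58, -0.09 to 0.72 and -2.03 to -0.40 between these and Cmi depletion. It gave 0 to 328, 0 to 106 and 0 to 337 genes called in these comparisons. For Cmi depletion 2 genes were called with no filter and 7 with the filter of 5 RPKM, against 12. For the libraries labelled Trr depletion the counts were 2, 3 and, without both Cmi depletion libraries, 104, against 6. Where a group lost its library at a stage, the fit assumes that the additive model holds for it. Of 54 single-library ratios recomputed with the scalings, 31 moved beyond their counting interval and none turned to the other side of 1 from an interval that excluded it. The stage fit already matches libraries by genotype. No paired analysis was possible because, by replicate number, each group holds 1 library and the labels number none. The depth limits Eip93F at blue gut, with 59 to 133 reads per library.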
